A study of Homo sapiens with 4 samples.

Results

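ATF4-CHOP stress effectors and ASNS are genes that carry out the integrated stress response, the programme by which a cell copes with a shortage of amino acids or with misfolded proteins in the endoplasmic reticulum. The 10 genes ASNS, TRIB3, CHAC1, SESN2, DDIT4, PPP1R15A, CTH, CBS, STC2 and NUPR1 were taken by symbol from RNA-seq of MV4-11 cells, and all 10 were found among the 16490 genes of the table. MV4-11 is an established human cell line of acute myeloid leukemia (AML). There were 2 libraries of cells carrying sh-NC, the control hairpin, and 2 libraries of cells carrying sh-CEBPG#3, a hairpin against CEBPG. The CEBPG hairpin sat in the pLKO.1-puro lentiviral vector and infected cells were selected with puromycin, while the vector of the control hairpin is not given in the sources used here. The knockdown rests on 1 hairpin. The sources used here do not give separate infections for the libraries of a group, and p-values then measure only the spread between these libraries.

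When eIF2alpha is phosphorylated, general translation falls while that of ATF4 rises. ATF4 is a bZIP transcription factor that switches on DDIT3, which encodes CHOP, and a set of effectors for amino acid supply, redox balance and growth control. CEBPG, the gene knocked down here, is a bZIP protein that pairs with ATF4 on composite C/EBP-ATF response elements. The comparison of sh-CEBPG#3 with sh-NC cells thus asks whether the level of these effectors differed when CEBPG was lowered.

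The core of such an element reads TGATGNAA, where N is any base. The core was searched on both strands, together with the palindromic cyclic AMP response element TGACGTCA, to which ATF and CREB factors bind. The windows run from 250 bases before to 50 bases after each RefSeq start site on GRCh38.p14, the genome of the hg38 build named in the submitters' processing notes. The first core was in 3.62% of all 35116 windows and the second in 1.85%. Of the 10 genes, 9 had 14 windows in all, and NUPR1 had none. The first core was found for 2 of the 9 genes, ASNS and CHAC1, and the second for PPP1R15A. The stretches are shown because they hold the letters to which the factor that was lowered, or its relatives, can bind, with the core in capitals and the strand of the gene printed 5′ to 3′. ASNS had 2 windows, for different start sites. The ASNS stretch covers chr7:97872438-97872507 on the minus strand, and its core starts 68 bases before the start site of its window. That start site lies inside the span of the gene, chr7:97851677-97928441, and not at its end. The CHAC1 stretch covers chr15:40953231-40953300 on the plus strand, and its core, in the reverse complement, starts 209 bases before the start site. The PPP1R15A stretch covers chr19:48872332-48872401 on the plus strand, and its core starts 58 bases before the start site.
ASNS: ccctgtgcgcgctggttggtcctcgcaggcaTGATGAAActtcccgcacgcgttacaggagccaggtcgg
CHAC1: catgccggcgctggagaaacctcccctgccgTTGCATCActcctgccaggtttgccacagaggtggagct
PPP1R15A: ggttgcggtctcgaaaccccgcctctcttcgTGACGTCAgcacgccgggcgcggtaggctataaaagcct
A match is a description of these letters and does not show that a factor bound there in these cells.

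Values are FPKM, a measure of RNA abundance scaled to transcript length and to the mapped reads, summed over the RefSeq transcripts of a gene. The FPKM totals lay between 364353 and 389766 per library, and the depth is unknown because FPKM values carry no read counts. Fold changes are differences of log2(FPKM + 1). On this scale, changes of genes at low levels come out smaller than in FPKM. A gene is called lower or higher at an adjusted p under 0.05 from limma over the 12142 genes tested. The targeted gene CEBPG had 30.4 and 33.6 FPKM with sh-NC, as against 19.2 and 17.1 FPKM with sh-CEBPG#3, so 56.8% of its control level was left. All 8 markers of a myelomonocytic leukemia that were listed had values in MV4-11 cells, and their summed level was 889 to 967 FPKM in sh-NC and 3374 to 3545 FPKM in sh-CEBPG#3 libraries. Of these 8 genes 5 were higher and 2 were lower, where 18.5% of all genes tested were higher and 23.8% lower. The 2 lower ones were the homeobox genes MEIS1 at a log2 fold change of -0.87 (limma, adjusted p = 8.31e-05) and HOXA9 at -0.36 (limma, adjusted p = 0.0167). Most of the rise of the sum was in LYZ, the lysozyme gene, which went from 589 ± 30.9 to 3054 ± 102 FPKM (SD, n = 2 each). The part of this shift in the results below was not tested.

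Among the stress effectors, NUPR1 and CHAC1 were higher and CBS, CTH and PPP1R15A were lower in sh-CEBPG#3 cells, while ASNS, TRIB3, SESN2, DDIT4 and STC2 were not called. Thus 3 of 10 genes were lower, where 23.8% of all genes tested were lower, and 2 of 10 were higher, where 18.5% of all genes were higher. Both shares are near those of all genes. Only CBS, 1 of 10, was lower without sh-CEBPG#3 replicate 2, and without sh-CEBPG#3 replicate 1 only NUPR1, 1 of 10, was higher. With genes of any level kept, 0 were lower by adjusted p in limma, and with the most abundant transcript of each gene 0 were lower and 1 was higher. Over all genes 42.2% were called in either direction, but 24.8% with genes of any level kept and 23.9% with the most abundant transcript. At an unadjusted p under 0.05 in limma, 2 of the 10 were lower and 2 higher both without the filter and with the most abundant transcript. The median log2 fold change of the 10 genes was -0.05, beside -0.04 for all genes tested, and it ran from -0.12 without sh-CEBPG#3 replicate 1 to 0.01 without sh-CEBPG#3 replicate 2. None of the 10 combined an adjusted p under 0.05 in limma with a log2 fold change beyond 1 in either direction, against 1.04% of all genes lower and 2.33% higher by that rule. At an unadjusted p under 0.05 the count beyond a log2 fold change of 1 was also 0. In 8 of the 10 genes the groups did not overlap, 4 lower and 4 higher, where 71.7% of all genes had groups that did not overlap. The smallest p of an exact permutation test with 2 libraries per group is 0.3333, and the calls therefore rest on the spread that limma shares across genes.

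**Figure D1:**
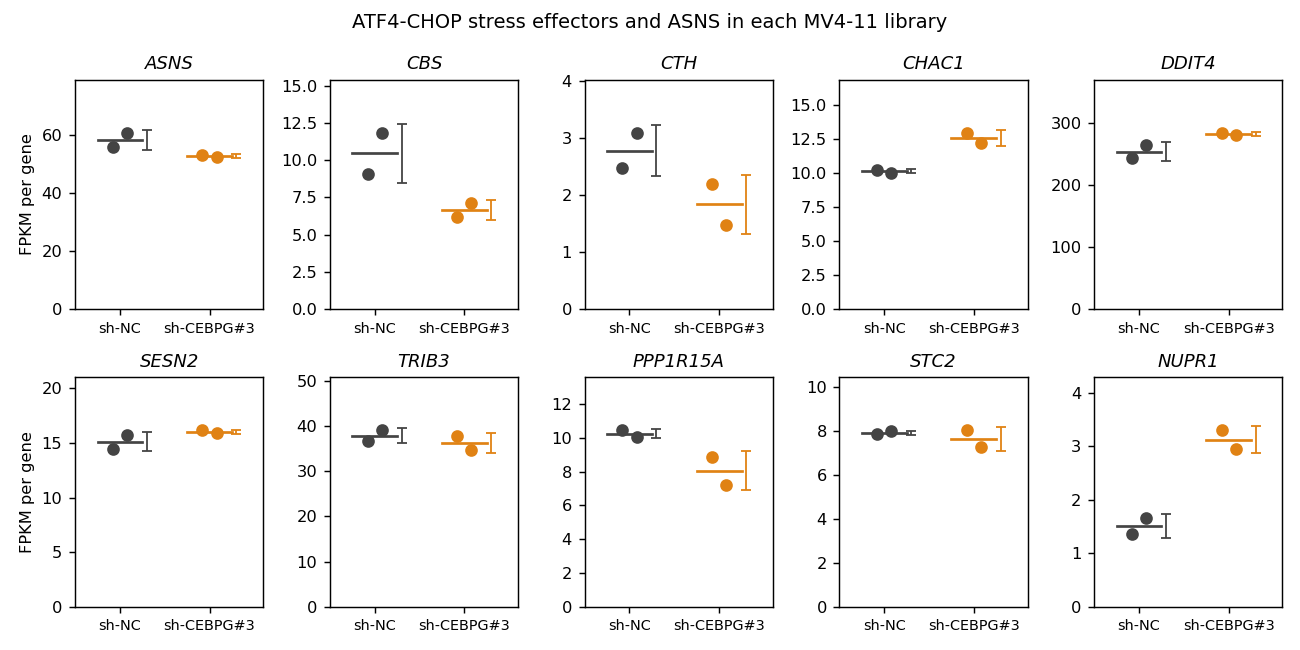
FPKM per gene (vertical axes, from 0) of each stress effector gene in the 2 sh-NC and the 2 sh-CEBPG#3 libraries; points are libraries, horizontal lines are means and the bars beside them are SD (n = 2). The groups overlap for TRIB3 and STC2, and NUPR1 shows the widest gap relative to its level, from a mean of 1.51 to 3.12 FPKM.

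By level in sh-NC cells, DDIT4 came first with 253 ± 15.4 FPKM (SD, n = 2), followed by ASNS, TRIB3, SESN2, CBS, PPP1R15A, CHAC1, STC2, CTH and NUPR1, which had 1.51 ± 0.222 FPKM. FPKM is scaled to transcript length, so these levels can be compared between genes. The neighbours CBS and PPP1R15A overlapped between the control libraries, as did PPP1R15A and CHAC1, and each of the other neighbours was apart. DDIT4 lay at percentile 98.6 of the control levels of all genes tested, ASNS at 92.9 and NUPR1 at 13.6.

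ASNS encodes asparagine synthetase, which makes asparagine from aspartate and glutamine and is a classic target of ATF4. It sits at chr7:97851677-97928441 on the minus strand. ASNS measured 55.8 and 60.6 FPKM with sh-NC, as against 53.0 and 52.1 FPKM with sh-CEBPG#3. Both knockdown libraries were below both controls, and the means of 58.2 ± 3.41 and 52.6 ± 0.607 FPKM (SD, n = 2) left 90.2% of the control level. The log2 fold change was -0.14 (standard error, SE, 0.07, limma 95% interval -0.31 to 0.02, adjusted p = 0.144), so ASNS was not called and a log2 change of -1 lies outside the interval. With quantile normalization (-0.18, adjusted p = 0.0101 in limma) or equal totals (-0.17, adjusted p = 0.0118 in limma) ASNS was called lower, and without sh-NC replicate 1 it was -0.20 (limma, adjusted p = 0.0493).

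ASNS was listed by 5 RefSeq transcripts. NM_001673 made up 92.6% of the gene in sh-NC cells, with 51.7 and 56.1 FPKM in the controls and 44.8 and 46.9 FPKM in the knockdown libraries. NM_183356, chosen after its values were seen, had 1.98 and 3.29 FPKM in the controls and 6.37 and 4.59 FPKM in the knockdown libraries. The main transcript was thus lower and the minor one higher in both sh-CEBPG#3 libraries, with no overlap in either case. Tested as single transcripts, neither was called in limma, where NM_001673 had -0.23 (adjusted p = 0.133) and NM_183356 had 0.84 (adjusted p = 0.127) on the log2 scale. The share of NM_183356 in the gene was 4.52% in sh-NC and 10.4% in sh-CEBPG#3 cells. How the reads of overlapping transcripts were divided is not given in the sources used here.

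The genes whose values followed ASNS most closely over the 4 libraries, by Euclidean distance of log2 values centred on each gene's mean, were HNRNPK (0.00545), EIF3L (0.0102), G3BP1 (0.0123), RTL10 (0.0131) and SUGT1 (0.0157). Each of the 5 had a log2 fold change between -0.15 and -0.14, which follows from choosing them by closeness to ASNS. None was called, with limma adjusted p-values from 0.121 (EIF3L) to 0.270 (RTL10). Of the other stress effectors, TRIB3 was closest to ASNS and ranked 1270 of 12141 genes, and NUPR1 was farthest at rank 11327. These distances rest on 4 libraries of 1 cell line and are a description.

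CBS and CTH encode the 2 enzymes of transsulfuration, cystathionine beta-synthase and cystathionine gamma-lyase, which carry sulfur from homocysteine to cysteine. CBS sits at chr21:43053191-43076873 on the minus strand, and CTH at chr1:70411268-70439851 on the plus strand. CBS measured 9.06 and 11.8 FPKM with sh-NC, as against 6.18 and 7.13 FPKM with sh-CEBPG#3. Both knockdown libraries were below both controls. Its log2 fold change was -0.57 (limma, SE 0.12, adjusted p = 0.00416), with 63.7% of the control level left. CTH measured 2.46 and 3.09 FPKM with sh-NC, as against 2.19 and 1.47 FPKM with sh-CEBPG#3. The lower control and the higher knockdown library of CTH lay close together, and the groups did not overlap. For CTH the log2 fold change was -0.42 (limma, SE 0.15, adjusted p = 0.0407), and 65.99% of the control level was left. In bulk RNA, fewer cells that express a gene and less of its RNA per cell cannot be told apart.

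Both decreases in transsulfuration genes depended on choices of the analysis. Without sh-CEBPG#3 replicate 2 the log2 fold change of CTH was -0.24 (limma, adjusted p = 0.235), and without sh-NC replicate 2 it was -0.30 (limma, adjusted p = 0.143). CBS was called with each library left out, between -0.75 and -0.40. The 2 RefSeq transcripts of CBS were far apart within a group. NM_000071 measured 3.2 and 10.6 FPKM with sh-NC, as against 3.34 and 5.86 FPKM with sh-CEBPG#3. NM_001178009 measured 5.86 and 1.25 FPKM with sh-NC, as against 2.84 and 1.27 FPKM with sh-CEBPG#3. Each transcript overlapped between the groups, and only their sum separated them. With the most abundant transcript in place of the sum, the value of CBS was -0.35 (limma, adjusted p = 0.652). When genes of any level were kept, the limma adjusted p was 0.0522 for CBS and 0.147 for CTH.

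**Figure D2:**
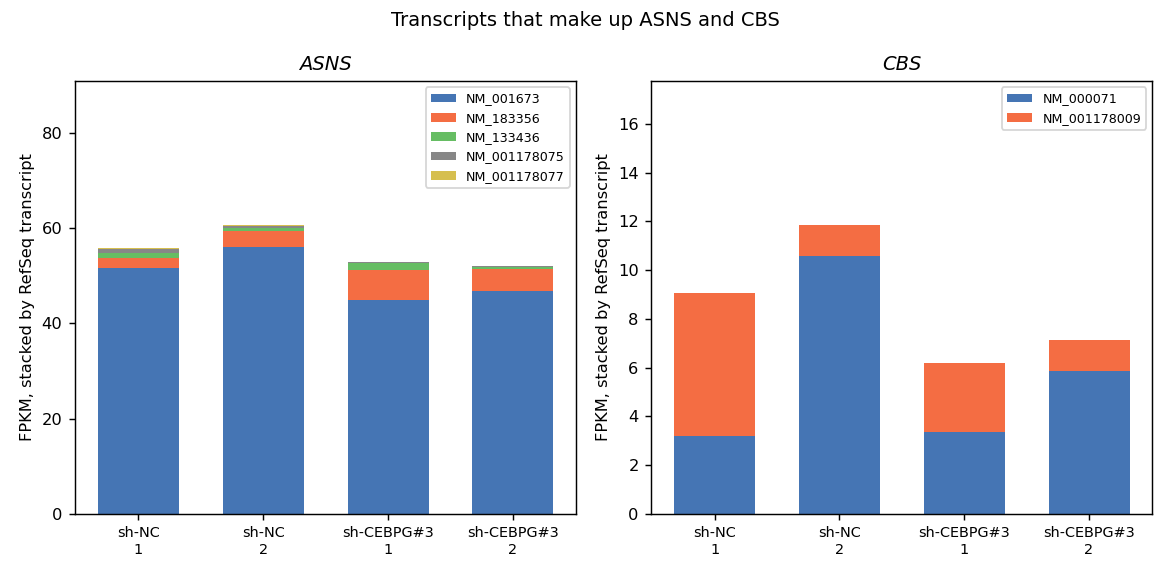
FPKM of ASNS and CBS in each library, stacked by RefSeq transcript (vertical axes from 0, 1 bar per library). In ASNS the main transcript NM_001673 makes up most of each bar, whereas the 2 transcripts of CBS trade places between the sh-NC libraries, with 3.2 and 10.6 FPKM for NM_000071.

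CHAC1 encodes a gamma-glutamylcyclotransferase that breaks down glutathione, the cell's main thiol, and is induced through ATF4 and CHOP. The gene sits at chr15:40953471-40956512 on the plus strand. CHAC1 measured 10.2 and 10.05 FPKM with sh-NC, as against 13.0 and 12.2 FPKM with sh-CEBPG#3, so both knockdown libraries were higher than both controls. Its level was 1.24-fold that of the control, with a log2 fold change of 0.28 (limma, SE 0.08, adjusted p = 0.0196). Without sh-CEBPG#3 replicate 1 it was 0.24 (limma, adjusted p = 0.116). CHAC1 is 1 of the 2 genes with the TGATGNAA core in a window. The other, ASNS, had a fold change of the opposite sign that was not called.

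DDIT4, SESN2 and TRIB3 restrain growth signalling. DDIT4 (REDD1) lowers mTORC1 activity through the TSC complex, SESN2 is a leucine sensor that binds GATOR2 upstream of mTORC1, and TRIB3 is a pseudokinase that binds AKT and feeds back on ATF4. DDIT4 lies on chromosome 10 from 72273924 to 72276036, SESN2 on chromosome 1 from 28259518 to 28282491 and TRIB3 on chromosome 20 from 380760 to 397559, each on the plus strand. DDIT4 measured 243 and 264 FPKM with sh-NC, as against 284 and 279 FPKM with sh-CEBPG#3. Both knockdown libraries were above both controls, and the log2 fold change was 0.15 (limma 95% interval -0.01 to 0.31, adjusted p = 0.110). DDIT4 was called higher with quantile normalization (0.14, adjusted p = 0.0182 in limma), with equal totals (0.13, adjusted p = 0.0179 in limma) and without sh-NC replicate 2 (0.22, adjusted p = 0.0129 in limma).

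SESN2 measured 14.5 and 15.8 FPKM with sh-NC, as against 16.2 and 15.9 FPKM with sh-CEBPG#3. The knockdown libraries lay just above the upper control, at a log2 fold change of 0.08 (limma 95% interval -0.10 to 0.26, adjusted p = 0.461). TRIB3 measured 36.8 and 39.1 FPKM with sh-NC, as against 37.9 and 34.7 FPKM with sh-CEBPG#3, so the groups overlapped. The log2 fold change of TRIB3 was -0.06 (limma 95% interval -0.24 to 0.11, adjusted p = 0.565). Of its 4 listed transcripts, NM_021158 made up 96.5% of the gene in sh-NC cells. For all 3 genes the interval lies within a log2 change of 0.32 in either direction.

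PPP1R15A encodes GADD34, the stress-inducible subunit that directs protein phosphatase 1 to eIF2alpha and so ends the response. It sits at chr19:48872421-48876058 on the plus strand. PPP1R15A measured 10.4 and 10.04 FPKM with sh-NC, as against 8.88 and 7.23 FPKM with sh-CEBPG#3. Both knockdown libraries were lower than both controls but stood further apart from each other than the controls did. The log2 fold change was -0.32 (limma, SE 0.10, adjusted p = 0.0309), and 78.7% of the control level was left. Without sh-CEBPG#3 replicate 2 it was -0.19 (limma, adjusted p = 0.235), and the limma adjusted p was 0.104 when genes of any level were kept. PPP1R15B, its constitutive paralog, was lower as well, from 25.6 ± 1.31 to 21.3 ± 0.481 FPKM (SD, n = 2) with a log2 fold change of -0.25 (limma, adjusted p = 0.0252).

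The remaining genes are STC2 and NUPR1. STC2 encodes stanniocalcin 2, a secreted glycoprotein, and sits at chr5:173314723-173328414 on the minus strand. STC2 measured 7.86 and 7.999 FPKM with sh-NC, as against 8.04 and 7.26 FPKM with sh-CEBPG#3. The groups overlapped, at a log2 fold change of -0.05 (limma 95% interval -0.25 to 0.15, adjusted p = 0.711). NUPR1 encodes a small stress-inducible nuclear protein and sits at chr16:28532708-28538974. NUPR1 measured 1.36 and 1.67 FPKM with sh-NC, as against 3.30 and 2.95 FPKM with sh-CEBPG#3. Both knockdown libraries were well above both controls. Its log2 fold change of 0.72 (limma, SE 0.12, adjusted p = 0.0010) was the largest of the 10 genes, and on the FPKM scale the level was 2.07-fold that of the control. With a pseudocount of 0.01, which weighs low values more, the log2 fold change was 1.05 (limma, adjusted p = 0.00151), and NUPR1 then passed a log2 fold change of 1.

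**Figure D3:**
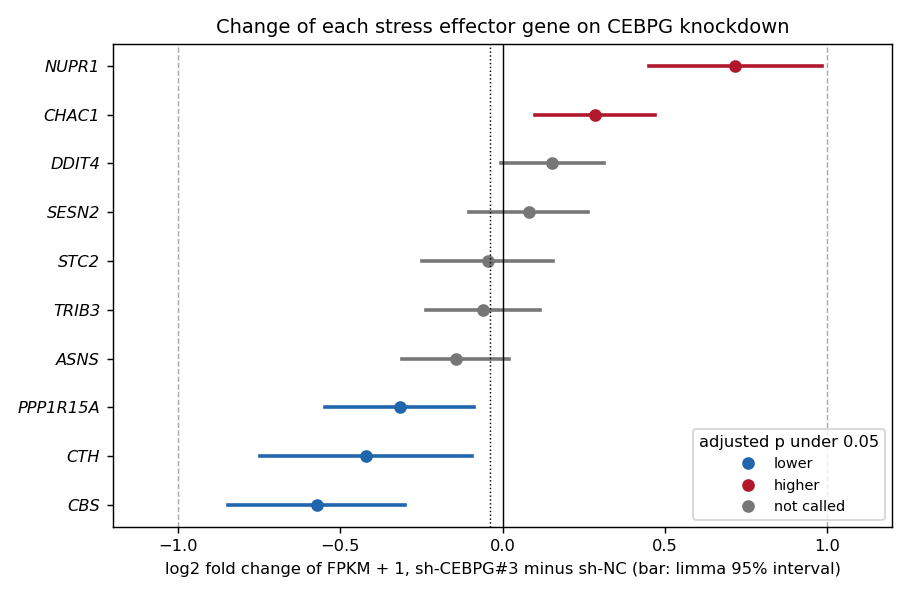
Log2 fold change of FPKM + 1 (horizontal axis, sh-CEBPG#3 minus sh-NC) of each stress effector gene, with limma 95% intervals as bars and the call at an adjusted p under 0.05 as colour; the dotted line is the median of all genes tested (-0.04) and dashed lines mark a log2 change of 1. The values run from -0.57 for CBS to 0.72 for NUPR1, and each interval stays within a log2 change of 1.

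**Figure D4:**
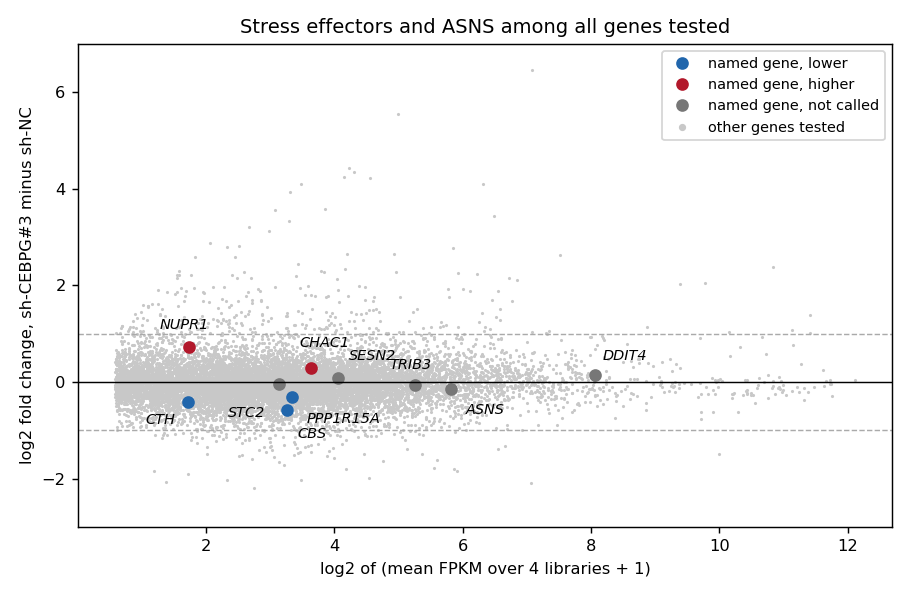
Log2 fold change (vertical axis) against the log2 of the mean FPKM over the 4 libraries plus 1 (horizontal axis) for the 12142 genes tested, with the stress effectors in colour. The named genes span low (NUPR1, CTH) to high (DDIT4, ASNS) levels and all lie between the dashed lines at a log2 change of 1, inside the cloud of grey points.

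Most of the effectors and ASNS are listed by 1 transcript or dominated by 1. The 10 genes hold 19 transcript rows, 6 genes with 1 row and 4 with more. Tested by transcript, an analysis that was added with the data already seen, 14 rows passed the filter of a mean of at least 0.5 FPKM, and none of the 14 was called in limma, where 8.24% of 18624 transcripts were called. At an unadjusted p under 0.05 the count was 4 of 14, where 28.5% of the transcripts passed. NUPR1 came nearest with NM_012385 (log2 fold change 0.74, adjusted p = 0.0591 in limma).

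Of the regulators above these effectors, ATF4 and DDIT3 were not called on the values summed per gene. ATF4 measured 259 and 269 FPKM with sh-NC, as against 269 and 256 FPKM with sh-CEBPG#3. DDIT3 measured 29.0 and 28.7 FPKM with sh-NC, as against 29.3 and 27.3 FPKM with sh-CEBPG#3. For both the groups overlapped, with log2 fold changes of -0.01 (limma, adjusted p = 0.924) and -0.03 (limma, adjusted p = 0.808). ATF4 is controlled mainly at translation, which RNA levels do not show. With the most abundant transcript in place of the sum, DDIT3 was -0.35 (limma, adjusted p = 0.0381) and ATF4 was 0.03.

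Of 11 regulators of the response, 1 was lower and 3 were higher, where 23.8% and 18.5% of all genes were. The list holds the eIF2alpha kinases, eIF2alpha itself and bZIP factors. The lower gene was CEBPG, so the lower count holds only the target of the hairpin. EIF2AK2 encodes PKR, the eIF2alpha kinase that senses double-stranded RNA and is an interferon-stimulated gene. It went from 4.57 ± 0.551 to 18.4 ± 1.57 FPKM (SD, n = 2), with a log2 fold change of 1.80 (limma, adjusted p = 9.96e-07). CEBPB, a C/EBP family member, rose with a log2 fold change of 0.70 (limma, adjusted p = 9.92e-05), and ATF3, a stress-induced bZIP factor, with one of 0.41 (limma, adjusted p = 0.00914). The other 7 genes of the list, among them ATF5 (-0.14, adjusted p = 0.202 in limma), the next lowest after CEBPG, and the kinases EIF2AK1, EIF2AK3 and EIF2AK4, were not called, and the median log2 fold change of the list was -0.01 beside -0.04 for all genes tested.

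Among 26 other genes known as ATF4 or CHOP targets, 8 were lower, 5 were higher and 13 were not called, where 23.8% of all genes were lower and 18.5% higher, with a median log2 fold change of 0.02 beside -0.04 for all genes tested. JDP2, a bZIP repressor, was lower with 4.13 ± 0.0847 FPKM in sh-NC and 1.74 ± 0.240 FPKM in sh-CEBPG#3 cells (SD, n = 2), a log2 fold change of -0.91 (limma, adjusted p = 0.000155). SLC1A5, the glutamine transporter ASCT2, was lower with a log2 fold change of -0.88 (limma, adjusted p = 1.52e-05) and 53.8% of its control level left. The secreted factors GDF15 and INHBE were higher by more than a log2 fold change of 1. GDF15 went from 8.38 ± 2.02 to 20.6 ± 1.59 FPKM (SD, n = 2), a log2 fold change of 1.22 (limma, adjusted p = 6.78e-05). INHBE had a log2 fold change of 1.03 (limma, adjusted p = 0.000458). Without sh-NC replicate 1 the values were 0.998 for GDF15 and 0.765 for INHBE, and INHBE was 0.992 without sh-CEBPG#3 replicate 1. The list had 4 lower genes without sh-CEBPG#3 replicate 2, and without sh-CEBPG#3 replicate 1, 3 were higher.

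Of 21 paralogs and binding partners of the effectors, 17 were tested, 5 were lower, 2 were higher and 10 were not called, where 23.8% and 18.5% of all genes were lower and higher, at a median log2 fold change of 0.00. SESN1, a p53-responsive paralog of SESN2, was 16.4 and 16.2 FPKM with sh-NC, as against 27.0 and 24.3 FPKM with sh-CEBPG#3, a log2 fold change of 0.62 (limma, adjusted p = 0.000242). MIOS, a GATOR2 subunit, had 0.28 (limma, adjusted p = 0.0318), and it was not called with any 1 library left out (adjusted p from 0.0509 to 0.138 in limma). AKT1, a kinase that TRIB3 binds, fell by 0.34 on the log2 scale (limma, adjusted p = 0.00492) and WDR24, another GATOR2 subunit, by 0.31 (limma, adjusted p = 0.0306). WDR24 was called with a library left out only in the fit without sh-CEBPG#3 replicate 2. SESN3, the third sestrin, measured 0.28 and 0.261 FPKM with sh-NC, as against 0.50 and 0.440 FPKM with sh-CEBPG#3 and was below the filter. Without sh-CEBPG#3 replicate 1, 1 gene of this list was lower, and leaving out any 1 of the other libraries gave 3. The count of higher genes was 1 without each library other than sh-NC replicate 2.

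The 14 enzymes next to CBS, CTH and CHAC1 in methionine, sulfide and glutathione metabolism had 5 lower, 3 higher and 6 not called, where 23.8% and 18.5% of all genes were lower and higher. Their median log2 fold change was -0.16 beside -0.04 for all genes tested, but -0.04 without sh-CEBPG#3 replicate 2, -0.08 without sh-NC replicate 2 and -0.03 with the most abundant transcript. MTR, methionine synthase, which remakes methionine from homocysteine, measured 8.16 and 8.36 FPKM with sh-NC, as against 4.45 and 3.89 FPKM with sh-CEBPG#3. Its log2 fold change was -0.84 (limma, adjusted p = 9.90e-05). GGCT, a cyclotransferase that acts after glutathione breakdown, fell by 0.72 on the log2 scale (limma, adjusted p = 4.39e-05). GCLM, the modifier subunit of glutamate-cysteine ligase, was higher at 0.32 (limma, adjusted p = 0.0276), and AHCY, which makes homocysteine, at 0.26 (limma, adjusted p = 0.0176). GCLM was not called without sh-CEBPG#3 replicate 1 (0.22, adjusted p = 0.174 in limma), nor was AHCY (0.25, adjusted p = 0.136 in limma), and without that library 0 of the list were higher. When sh-CEBPG#3 replicate 2 was left out, 1 of the list was higher.

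Of 14 genes of the IRE1 and ATF6 arms of the unfolded protein response, signalling genes as well as genes for protein folding and degradation, 9 were higher and 0 were lower, where 18.5% and 23.8% of all genes were, with a median log2 fold change of 0.26 beside -0.04 for all genes tested. At an unadjusted p under 0.05 in limma, 10 were higher and 0 lower. HSPA5, the chaperone BiP, measured 161 and 182 FPKM with sh-NC, as against 248 and 233 FPKM with sh-CEBPG#3, a log2 fold change of 0.49 (limma, adjusted p = 0.000841). CRELD2 showed the largest increase of the list at 0.72 (limma, adjusted p = 6.80e-05). The signalling genes of these arms, XBP1 (-0.10, adjusted p = 0.314 in limma), ERN1 (0.07, adjusted p = 0.621) and ATF6 (0.05, adjusted p = 0.653), were not called, and XBP1 was called lower with quantile normalization (-0.15, adjusted p = 0.0151 in limma) and equal totals (-0.12, adjusted p = 0.0391 in limma). Without sh-CEBPG#3 replicate 1, and likewise without sh-CEBPG#3 replicate 2, 5 of the 14 genes were higher. Whether this list differed from the ATF4-CHOP effectors was not tested.

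**Figure D5:**
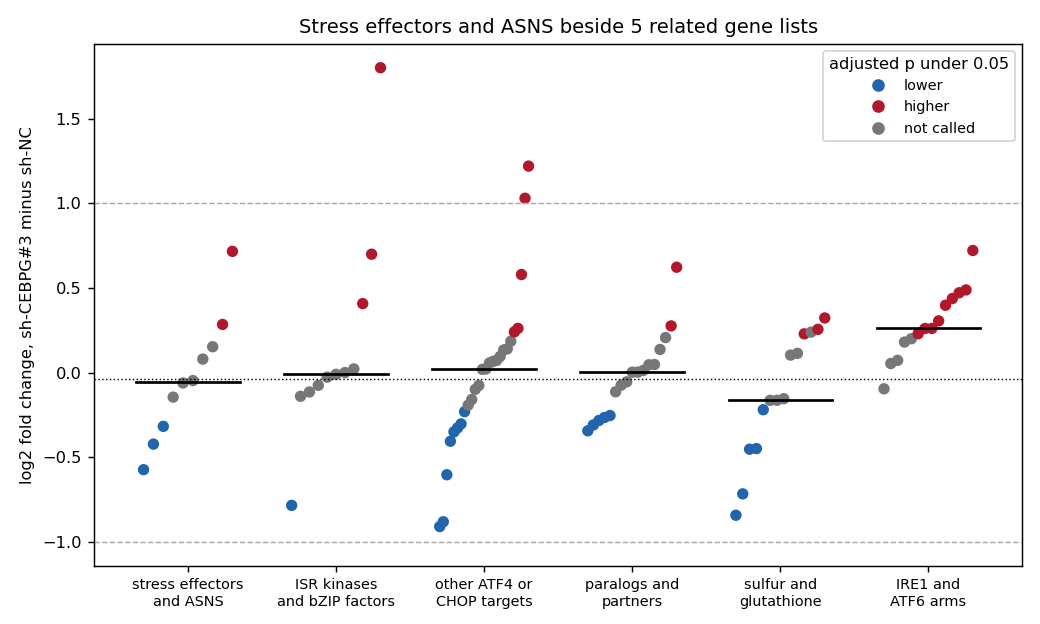
Log2 fold change (vertical axis, sh-CEBPG#3 minus sh-NC) of each tested gene of the stress effectors and 5 related lists; each point is a gene in the colour of its call, black lines are list medians and the dotted line is the median of all genes tested. The stress effectors, the other ATF4 or CHOP targets and the IRE1 and ATF6 arm genes each lie on both sides of 0. Their medians are -0.05, 0.02 and 0.26.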

How the data were processed

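RNA-seq libraries of MV4-11 cells with sh-NC (n = 2) or sh-CEBPG#3 (n = 2) were compared. The authors filtered the reads and mapped them with HISAT (HISAT2 2.0.5 and hg38 in the submitters' processing notes), and deposited 1 FPKM value per RefSeq transcript in each library. The program that computed the FPKM values is not given in the sources used here. The authors' DESeq2 test needs counts and was not run.

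Of 28780 listed transcripts, 199 had no value. FPKM values were summed by symbol to 16490 genes, and the 12142 genes whose mean over the libraries reached 0.5 FPKM were tested on log2(FPKM + 1) with limma 3.58.1 (lmFit, eBayes with a trend, no block) in R 4.3.3, with Benjamini-Hochberg adjustment. The test was also run on simulated data whose spread was taken from the fit to these libraries. Far fewer genes were changed there than were called here, so that run cannot show how reliable these calls are. Among 1027 transcripts under 0.06 FPKM in both controls, the most common ratio was found in 0.487%, so the values show no whole reads and the depth is unknown.

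The 10 genes and the lists were chosen with earlier results of these data known. Named beside the 10 are CEBPG, ATF4, DDIT3, list genes beyond a log2 fold change of 1, the 2 lowest and 2 highest of each list, list genes where 5 or fewer were called, and the 5 genes nearest to ASNS. LYZ, MEIS1, HOXA9, PPP1R15B, SESN3, ERN1 and the named kinases were chosen after their values were seen. The markers of other cell types are not reported here. Promoter windows are from RefSeq (GRCh38.p14) and were searched with Python 3.11.15. The counts and the values of 32 named genes were recomputed with a pseudocount of 0.1 or 0.01, without the filter, with a filter at 1 FPKM, after quantile normalization or scaling to equal totals, and with the most abundant transcript, no trend, a replicate block, and each library left out. The 10 genes were also tested by transcript.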

Additional observations from a re-analysis of the deposited data

How the results depend on the processing

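Why calls changed between the alternatives was not tested. Over all genes, 42.2% were called in the main fit, 24.8% with no filter and 23.9% with the most abundant transcript. The share was 47.4% with quantile normalization, 48.2% with equal totals and 39.7% with no trend. Of the 10 stress effectors 3 were lower and 2 higher. With no filter 0 were lower, and with the most abundant transcript 0 were lower and 1 was higher. With each library left out, 1 to 4 were lower and 1 to 3 higher, where the lone library of a group is assumed to vary like the others. With pseudocounts of 0.1 or 0.01, 1 gene (NUPR1) was higher beyond a log2 fold change of 1. NUPR1 was called at the gene level under every alternative, with 0.63 to 0.81 when a library was left out. CBS was not called with no filter (adjusted p = 0.0522 in limma), nor CTH (adjusted p = 0.147) or PPP1R15A (adjusted p = 0.104). With quantile normalization CTH (adjusted p = 0.065 in limma) and PPP1R15A (adjusted p = 0.05) were not called. CHAC1 was not called with the most abundant transcript (adjusted p = 0.0678 in limma). PPP1R15A was not called without the trend (adjusted p = 0.0517 in limma).

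For the lists, no filter gave 5 lower other ATF4 targets against 8, 1 higher among paralogs and partners against 2, and 1 higher sulfur and glutathione enzyme against 3. Quantile normalization gave 3 lower paralogs and partners against 5 and 1 lower gene of the IRE1 and ATF6 arms against 0, and equal totals gave 2 lower regulators against 1 and 1 lower gene of those arms. The most abundant transcript gave 2 lower regulators, 4 lower other targets, and 2 lower and 1 higher paralogs and partners. It also gave 3 lower and 0 higher sulfur and glutathione enzymes, and no trend gave 1 higher such enzyme. The IRE1 and ATF6 arms had 9 higher genes in the main fit, 7 with no filter and 6 with the most abundant transcript. With the replicate block 6 of them were higher, with no trend 8, with equal totals 10 and with quantile normalization 11. With each library left out, lower and higher counts were 4 to 10 and 3 to 6 for other targets, 1 to 3 and 1 to 3 for paralogs and partners, 4 to 6 and 0 to 2 for sulfur and glutathione enzymes, and 5 to 9 higher genes of the IRE1 and ATF6 arms.

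The sign turned for genes near 0. STC2 was 0.00029 with quantile normalization and ran from -0.112 to 0.018 with each library left out. ATF4 was 0.034 with the most abundant transcript and ran from -0.047 to 0.028 with a library left out, and DDIT3 from -0.075 to 0.023. Leaving out libraries turned the median of the other targets between -0.04 and 0.06, of the paralogs and partners between -0.09 and 0.01, and of the regulators between -0.08 and 0.03. Of the other values of 32 named genes, 371 kept their side of the threshold, 40 lost and 9 gained a call.

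The deviations of libraries that share a number had a correlation of 0.061 over the genes. With 2 libraries per group, this value cannot settle whether the numbers pair them. With the replicate block, 3 of the other ATF4 targets were higher against 5, 3 paralogs and partners were lower and 1 was higher, 1 sulfur and glutathione enzyme was higher, and the stress effectors had 3 lower and 2 higher as without it. Over all genes, 39.2% were called with the block, against 42.2% without it. Without counts, low genes such as CTH and NUPR1 could not be weighted by depth.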
